A study of Sus scrofa with 14 samples.

Results

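Laminins are the cross-shaped trimers (an alpha, a beta and a gamma chain) that build the basement membrane, and integrins are the alpha-beta receptor pairs by which cells hold on to it and to other matrix or cells. All gene symbols of the form LAMA, LAMB or LAMC plus a number, ITGB plus a number, or ITGA plus a number or one of the letters L, M, V, X, D and E were taken from the deposited gene lists. This gave 32 genes of 30071 identifiers, namely 9 laminin chains (LAMA1, LAMA3, LAMA4, LAMB1, LAMB2, LAMB3, LAMC1 and LAMC3 among them), 15 integrin alpha chains and 8 integrin beta chains. The section gene lists name 30 of them, without ITGA5 and ITGA7. LAMA2 and LAMA5 do not appear among the symbols and were not analysed here. Only 15983 of the identifiers carry a symbol, and genes listed without one could not be matched.

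Nuclei came from frozen mammary glands of multiparous sows, 2 sows at each of 5 stages, namely day 90 of gestation (G90), days 0 and 20 of lactation (L0 and L20) and days 2 and 7 of natural involution (PI2 and PI7). A single tissue section each of G90 and PI2 was assayed by spatial transcriptomics, in which a spot can hold several cells, and 1 milk sample each of L0 (colostrum) and L20 by single-cell RNA sequencing. The labels give neither treatment nor genotype nor age. After filtering, 126833 nuclei with 18700704 to 53161349 UMIs (unique molecular identifiers, each marking an RNA molecule counted) per gland were kept. Levels are given as CPM, the UMIs of a gene per 1000000 UMIs of the same library or class.

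In the mammary gland the myoepithelial cells lie on the basement membrane beneath the milk-secreting luminal cells and are the epithelial layer with the widest contact to it. LAMA3 and LAMB3 encode chains of laminin 332, the anchor of stratified and glandular epithelium, which the ITGA6-ITGB4 pair binds in hemidesmosomes. ITGB1 pairs with many alpha chains, ITGAV pairs with ITGB3, ITGB5, ITGB6 and ITGB8, and the leukocyte integrins pair ITGB2 with ITGAL or ITGAM and ITGB7 with ITGA4 or ITGAE.

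LAMA3, LAMB3 and LAMA1 were laminins highest in myoepithelial nuclei, so the 250 bases before the RefSeq gene start (Sscrofa11.1, read 5′ to 3′ on the gene's strand) are shown for these 3. Capitals mark GGGCGG (GC box) or TGANTCA (the AP-1 site), searched on both strands.
LAMA3, chr6:108548568-108548817, + strand: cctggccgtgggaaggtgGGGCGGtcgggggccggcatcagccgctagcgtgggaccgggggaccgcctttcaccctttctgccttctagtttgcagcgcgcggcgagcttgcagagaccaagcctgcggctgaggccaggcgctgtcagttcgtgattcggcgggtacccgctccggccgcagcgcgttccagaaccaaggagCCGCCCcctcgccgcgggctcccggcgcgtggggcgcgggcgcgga
LAMB3, chr9:133297759-133298008, + strand: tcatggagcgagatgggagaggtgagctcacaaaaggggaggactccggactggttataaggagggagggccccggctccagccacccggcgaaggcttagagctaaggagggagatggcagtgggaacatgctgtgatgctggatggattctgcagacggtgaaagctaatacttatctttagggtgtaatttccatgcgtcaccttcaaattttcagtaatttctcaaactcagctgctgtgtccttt
LAMA1, chr6:100332593-100332842, + strand: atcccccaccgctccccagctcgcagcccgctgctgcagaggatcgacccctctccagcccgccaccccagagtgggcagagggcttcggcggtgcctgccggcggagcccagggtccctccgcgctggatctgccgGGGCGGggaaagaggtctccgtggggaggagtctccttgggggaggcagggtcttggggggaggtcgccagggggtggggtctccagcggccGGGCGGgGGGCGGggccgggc
GGGCGG occurred 2 times before LAMA3 and 3 times before LAMA1, and was not found before LAMB3. TGANTCA was found before none of the 3. GC content of the 3 windows was 73.2%, 51.2% and 76.0% in the order shown. Over 19572 protein-coding genes, 45.9% of windows of this length held GGGCGG and 5.27% held TGANTCA, and of the 32 members 18 and 2 did. ITGA1 and ITGA2 are neighbours on chromosome 16 (bases 32130265 to 32309917 and 32336240 to 32440311).

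Nuclei were put in classes by detected marker genes that include no laminin or integrin, which left 48346 of 126833 nuclei (38.1%) without a class. Luminal nuclei were marked by genes such as EPCAM, KRT8 and ELF5, myoepithelial by TP63, KRT14 and OXTR, fibroblast by COL1A1, DCN and PDGFRA, mural by RGS5, NOTCH3 and CSPG4, and blood endothelial by FLT1, EMCN and PLVAP. PROX1, MMRN1 and FLT4 marked lymphatic endothelial, CD163, CSF1R and C1QA macrophage, CD3E, CD2 and THEMIS T and NK, MS4A1, CD79A and PAX5 B and plasma, ADIPOQ, PLIN1 and LEP adipocyte, and CSF3R, CXCR2 and S100A8 neutrophil nuclei. Classes held 58697 luminal, 7395 fibroblast, 3410 T and NK, 3168 macrophage, 2588 blood endothelial, 1562 lymphatic endothelial, 792 myoepithelial, 361 mural (the contractile cells of vessel walls), 320 adipocyte and 164 B and plasma nuclei. None of the 10 leading genes of a class was a marker of another class. The gate, which allows at most 1 marker of each other class, favours this outcome, so it is no check of the classes. LAMA1 was among the leading genes of myoepithelial and ITGA7 among those of mural nuclei. Between 26.0% (ITGB6) and 65.9% (ITGA7) of a member's UMIs lay in nuclei without a class. UMIs were summed per class in each gland with at least 20 such nuclei, and each class was compared with the mean of the others in edgeR's quasi-likelihood test with the gland as a block. A call needed an adjusted p (Benjamini-Hochberg) under 0.05 over all genes tested and an absolute log2 fold change over 1. In all, 31 of 32 members passed the filter on low counts (LAMB2 did not) and 29 were called in at least 1 of the 9 classes tested. The filter passed 11444 genes, of which 293 (B and plasma) to 3068 (luminal) were called per class. The share of all genes called in at least 1 class is not given here.

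In myoepithelial nuclei LAMA1, LAMA3, LAMB3 and several integrins that bind laminins were higher than the mean of the other classes. LAMB1 and LAMC1 were not called in this class. In this class 12 of 31 members were higher and 5 lower, where 7.28% and 6.25% of all genes were, and the median log2 fold change was 0.32 for members and -0.07 for all genes. LAMA1, an alpha chain of early basement membranes, was at 126 to 1922 CPM over 9 glands (median 735) in myoepithelial and at 4.60 to 129 CPM over 10 glands (median 15.5) in luminal nuclei (log2 fold change 4.97, SE 0.25, adjusted p = 5.94e-30 against the mean of the other classes). LAMA3 was at 549 to 1778 CPM over 9 glands (median 803) in myoepithelial nuclei (log2 fold change 3.72, SE 0.20, adjusted p = 1.72e-27). For LAMA3 the lowest myoepithelial gland lay above every gland of the other 8 classes. For LAMA1 the lowest one, L20 replicate 1, overlapped the highest luminal (129 CPM) and mural (176 CPM) glands. LAMB3, also of laminin 332, was at 75.7 to 408 CPM over 9 glands (median 144) in myoepithelial and 21.9 to 241 CPM over 10 glands (median 49.2) in luminal nuclei, which overlapped, and it was called higher in both (log2 fold change 2.78 and 1.45).

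Of the receptors, ITGA2 and ITGA3, partners of ITGB1, were higher in myoepithelial nuclei by log2 fold changes of 2.23 and 1.98, and ITGB4 and ITGA6, the hemidesmosome pair, by 2.12 and 1.19. ITGB4 was at 109 to 496 CPM over 9 glands (median 266) in myoepithelial and 12.2 to 171 CPM over 10 glands (median 62.3) in luminal nuclei. ITGAV, ITGA1, ITGB6 and ITGB8 were also higher, by 1.58, 1.62, 1.66 and 1.06. LAMA4, the alpha chain of vessel walls, and ITGA4, ITGA5, ITGA8 and ITGAM were lower, with log2 fold changes of -1.59, -2.07, -1.51, -1.68 and -1.02. At least 1 UMI of LAMA1 was seen in 42.4% of myoepithelial nuclei and in 2.05% of T and NK nuclei, which should lack it. Median depths per gland were 989 to 2283 and 764 to 1221 UMIs. The call of ITGAM was lost under 14 of 17 and that of ITGB8 under 4 of 17 alternatives.

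In luminal nuclei most called members were lower, and 3 integrins and LAMB3 were higher. In this class 4 of 31 members were higher and 13 lower, beside 13.7% and 13.1% of all genes, with a median log2 fold change of -0.87 for members and 0.29 for all genes. ITGB8 and ITGB6, partners of ITGAV known for activating TGF-beta, were higher. ITGB8 was at 378 to 1136 CPM over 10 glands (median 561) in luminal and 99.7 to 475 CPM over 10 glands (median 233) in fibroblast nuclei (log2 fold change 2.24, SE 0.14, adjusted p = 2.84e-24). ITGB6 was at 34.5 to 403 CPM over 10 glands (median 172) in luminal and 9.51 to 93.2 CPM over 10 glands (median 21.7) in fibroblast nuclei (log2 fold change 2.08, SE 0.19, adjusted p = 2.23e-16), and for both genes luminal and myoepithelial glands overlapped. ITGA6 was higher by 1.47 and LAMB3 as given above. The genes that were lower were ITGA5 (-3.24), LAMA4 (-2.96), ITGA8 (-2.29), ITGA4 (-2.24), ITGA1 (-2.22), ITGB2, LAMB1, ITGB7, ITGAL, ITGAM, ITGA11, LAMA3 and LAMC1, the last 8 between -2.05 and -1.36.

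Fibroblast nuclei carried the chains of laminin 411, LAMA4, LAMB1 and LAMC1. Of 31 members, 9 were higher and 8 lower, beside 10.6% and 4.25% of all genes. LAMB1 was at 312 to 1272 CPM over 10 glands (median 601) in fibroblast and 102 to 532 CPM over 10 glands (median 246) in blood endothelial nuclei (log2 fold change 3.37, SE 0.22, adjusted p = 6.94e-24), and these ranges overlapped. LAMA4 was at 302 to 991 CPM over 10 glands (median 572) (log2 fold change 2.81, SE 0.21, adjusted p = 1.16e-20) and LAMC1 at 231 to 839 CPM over 10 glands (median 379) (log2 fold change 1.99, SE 0.16, adjusted p = 1.28e-18). LAMC3, a gamma chain with few UMIs in nuclei, was higher by 2.57 with a median of 15.6 CPM. ITGA8, a nephronectin receptor, was at 82.8 to 793 CPM over 10 glands (median 338) (log2 fold change 3.58, SE 0.22, adjusted p = 1.29e-25), and ITGA11, a collagen receptor of fibroblasts, at 41.7 to 157 CPM over 10 glands (median 102) (log2 fold change 2.91, SE 0.24, adjusted p = 6.48e-18). ITGB3 and ITGB5, vitronectin receptors with ITGAV, were higher by 1.63 and 1.14. ITGA7 was called higher by 1.49, a call lost under 13 of 17 alternatives. The 8 that were lower (ITGA4, ITGA6, ITGB2, ITGB4, ITGB7, ITGAM, ITGA3 and ITGAL) lay between -1.75 and -1.06, the calls of ITGAL, ITGAM and ITGB7 being lost under 7 of 17, 3 of 17 and 3 of 17 alternatives. With a gate of at least 3 markers ITGB7 changed direction, to a log2 fold change of 0.19.

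Mural nuclei, with at least the 20 needed in 5 glands, had 6 of 31 members higher and 3 lower (5.71% and 2.96% of all genes). ITGA7, a laminin receptor of muscle, was at 175 to 1022 CPM over 5 glands (median 358) in mural and 3.98 to 45 CPM over 10 glands (median 14.5) in fibroblast nuclei, which did not overlap (log2 fold change 6.43, SE 0.35, adjusted p = 6.05e-27). ITGA8 was at 345 to 1473 CPM over 5 glands (median 423) (log2 fold change 4.03, SE 0.29, adjusted p = 1.08e-20), and ITGA1, a collagen and laminin receptor, at 195 to 948 CPM over 5 glands (median 588) (log2 fold change 2.89, SE 0.27, adjusted p = 2.59e-15). LAMC3, LAMA4 and LAMA3 were higher by 2.21, 1.60 and 1.12, and ITGB4, ITGB8 and ITGA6 lower by log2 fold changes of -1.37, -1.27 and -1.20. The mural calls of ITGB4, LAMA3, ITGA6 and LAMC3 were lost under 9 of 17, 5 of 17, 4 of 17 and 3 of 17 alternatives.

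Blood endothelial nuclei had 8 members higher and 3 lower (8.66% and 2.2% of all genes), and lymphatic endothelial nuclei, with at least 20 in 8 glands, 7 and 6 (7.93% and 3.5%). Both had LAMA4, LAMB1 and LAMC1 higher, with the call of LAMC1 in lymphatic nuclei lost under 7 of 17 alternatives. LAMA4 was at 228 to 1556 CPM over 10 glands (median 542) in blood endothelial (log2 fold change 2.64, SE 0.21, adjusted p = 1.78e-18) and 394 to 1032 CPM over 8 glands (median 759.8) in lymphatic endothelial nuclei (log2 fold change 2.73, SE 0.23, adjusted p = 3.21e-17). ITGA5, the fibronectin receptor, was higher in both, by 2.35 and 1.65. ITGA1 was higher in blood endothelial nuclei (2.28) and lower in lymphatic ones (-1.02), at 212 to 813 CPM over 10 glands (median 379) against 31.0 to 73.1 CPM over 8 glands (median 38.8), and these ranges did not overlap. The lymphatic call of ITGA1 was lost under 8 of 17 alternatives. LAMA3 likewise was called higher in the first (1.39) and lower in the second (-1.22). ITGA9, a receptor needed for lymphatic valves, was at 502 to 1426 CPM over 8 glands (median 913) in lymphatic and 154 to 545 CPM over 10 glands (median 282) in blood endothelial nuclei (log2 fold change 2.27, SE 0.17, adjusted p = 1.58e-19). ITGB4 was at 159 to 684 CPM over 8 glands (median 300.4) in lymphatic endothelial nuclei (log2 fold change 2.51, SE 0.20, adjusted p = 4.73e-18), a range that overlapped that of myoepithelial nuclei, and ITGB3 was higher there by 1.43. ITGA6 and ITGB4 were higher in blood endothelial nuclei by 1.44 and 1.17, the call of ITGB4 lost under 3 of 17 alternatives. The 3 lower in blood endothelial nuclei were ITGB7 (-1.13), ITGA8 (-1.04) and ITGAE (-1.01), calls lost under 9 of 17, 2 of 17 and 7 of 17 alternatives. ITGA4 (-1.81), ITGB5 (-1.46), ITGB2 (-1.43) and ITGAL (-1.42) were the others lower in lymphatic endothelial nuclei, the calls of ITGB2 and ITGAL lost under 5 of 17 and 1 of 17 alternatives. The 2 endothelial classes were not tested against each other.

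ITGA4, ITGAL, ITGAM and ITGB2 were higher and the laminins LAMA3, LAMA4, LAMB1 and LAMC1 lower in both the T and NK and the macrophage class, while ITGB7 and ITGAE were called higher in T and NK nuclei alone. T and NK nuclei had 7 members higher and 9 lower (8.01% and 8.29% of all genes). ITGA4 was at 165 to 1122 CPM over 10 glands (median 720.1) (log2 fold change 4.60, SE 0.18, adjusted p = 4.65e-37), its partner ITGB7, which guides lymphocytes to mucosa, at 87.4 to 337 CPM over 10 glands (median 217) (log2 fold change 4.05, SE 0.25, adjusted p = 2.33e-25), and ITGAL, the chain of LFA-1, at 253 to 699 CPM over 10 glands (median 384) (log2 fold change 3.63, SE 0.20, adjusted p = 1.01e-27). ITGB7 did not overlap between T and NK nuclei and any other class tested. ITGAE, the chain that binds E-cadherin on epithelium, was higher by 2.04, with a range of 27.5 to 242 CPM over 10 glands (median 107). ITGB2, ITGA1 and ITGAM were higher by 2.32, 1.64 and 1.05, the last call lost under 5 of 17 alternatives. Macrophage nuclei had 6 higher and 8 lower (10.4% and 8.13%). ITGAM was at 225 to 518 CPM over 10 glands (median 329) (log2 fold change 3.19, SE 0.20, adjusted p = 6.28e-24) and ITGB2 at 81.7 to 315 CPM over 10 glands (median 153) (log2 fold change 2.99, SE 0.24, adjusted p = 5.20e-19).

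Macrophage nuclei were also higher in ITGA4 (2.09), ITGAL (1.89), ITGB5 (1.47) and ITGA9 (1.33). LAMA4, LAMB1, LAMC1 and LAMA3 were lower in both T and NK nuclei (-1.85, -1.85, -1.19 and -1.17) and macrophage nuclei (between -2.43 for LAMA4 and -1.02 for LAMA3, the latter call lost under 4 of 17 alternatives). Also lower were LAMA1 (-1.74), ITGAV (-1.19), ITGB5 (-1.18), ITGA9 (-1.07) and ITGB4 (-1.0) in T and NK nuclei, the last 2 calls lost under 2 of 17 and 6 of 17 alternatives, and ITGA1 (-2.57), ITGA8 (-1.45), ITGA2 (-1.12) and ITGB4 (-1.09) in macrophage nuclei. B and plasma nuclei, with at least 20 in 3 glands, had ITGA4 (2.66) and ITGAM (1.86) higher and ITGA1 (-2.70, a call lost under 3 of 11 alternatives) lower (1.55% and 1.01% of all genes). ITGB1 and ITGA10 were called in no class. ITGB1, the shared beta chain, had class medians from 128 CPM in luminal to 489 CPM in blood endothelial nuclei, and ITGA10 from 13.5 CPM in B and plasma to 63.1 CPM in fibroblast nuclei. LAMB2, which was not tested, had its highest class medians in fibroblast (14.7 CPM) and mural nuclei (14.3 CPM), whose glands overlapped. Of the 117 calls over all classes, 84 held under every alternative run, which were 17 for each class but 11 for B and plasma nuclei. A gate of at least 3 markers was the single alternative that lost the calls of ITGA1, ITGA4, ITGA5 and ITGA8 in myoepithelial, ITGB7 and ITGA11 in luminal, ITGB2 in fibroblast and ITGB8 in mural nuclei. The call of ITGA9 in macrophage nuclei was lost with at least 50 nuclei per gland, and that of ITGA3 in fibroblast nuclei without PI2 replicate 1.

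**Figure D1:**
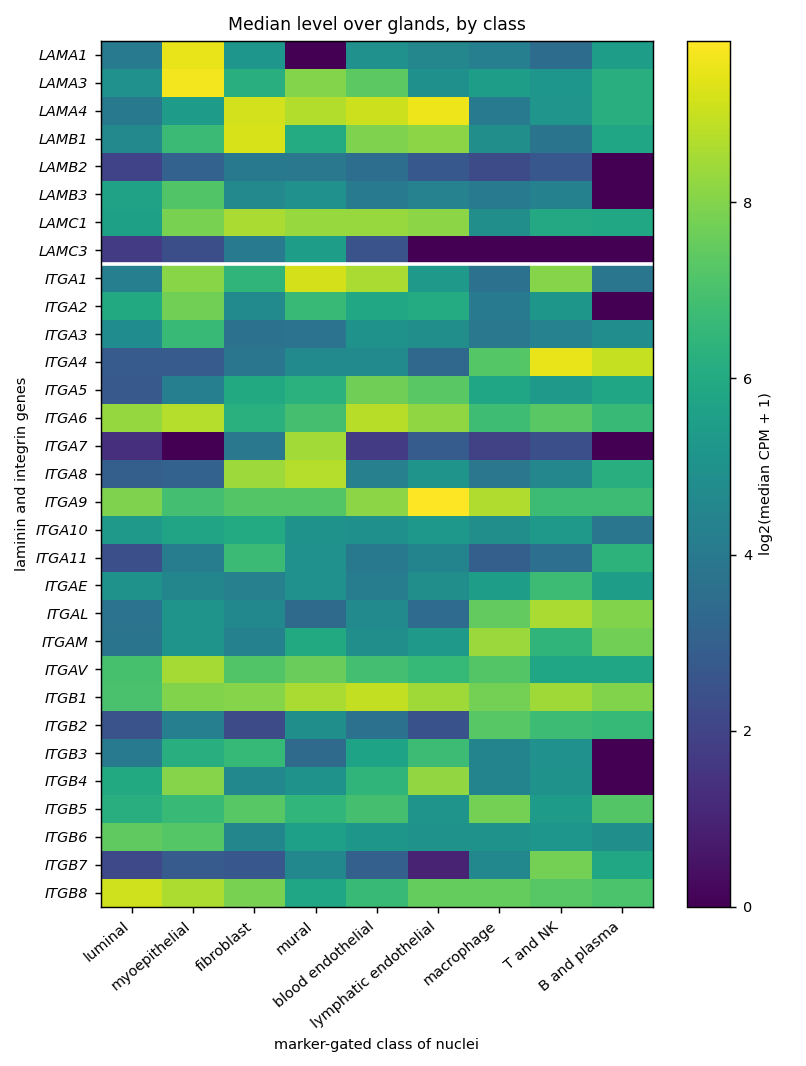
Median level over glands (log2 of CPM + 1, colour) of 8 laminin chains (above the white line) and the 23 integrin chains (rows) in the 9 classes of nuclei tested (columns). LAMA1, LAMA3 and LAMB3 are brightest in myoepithelial nuclei, and ITGA4, ITGAL and ITGB7 in T and NK nuclei.

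**Figure D2:**
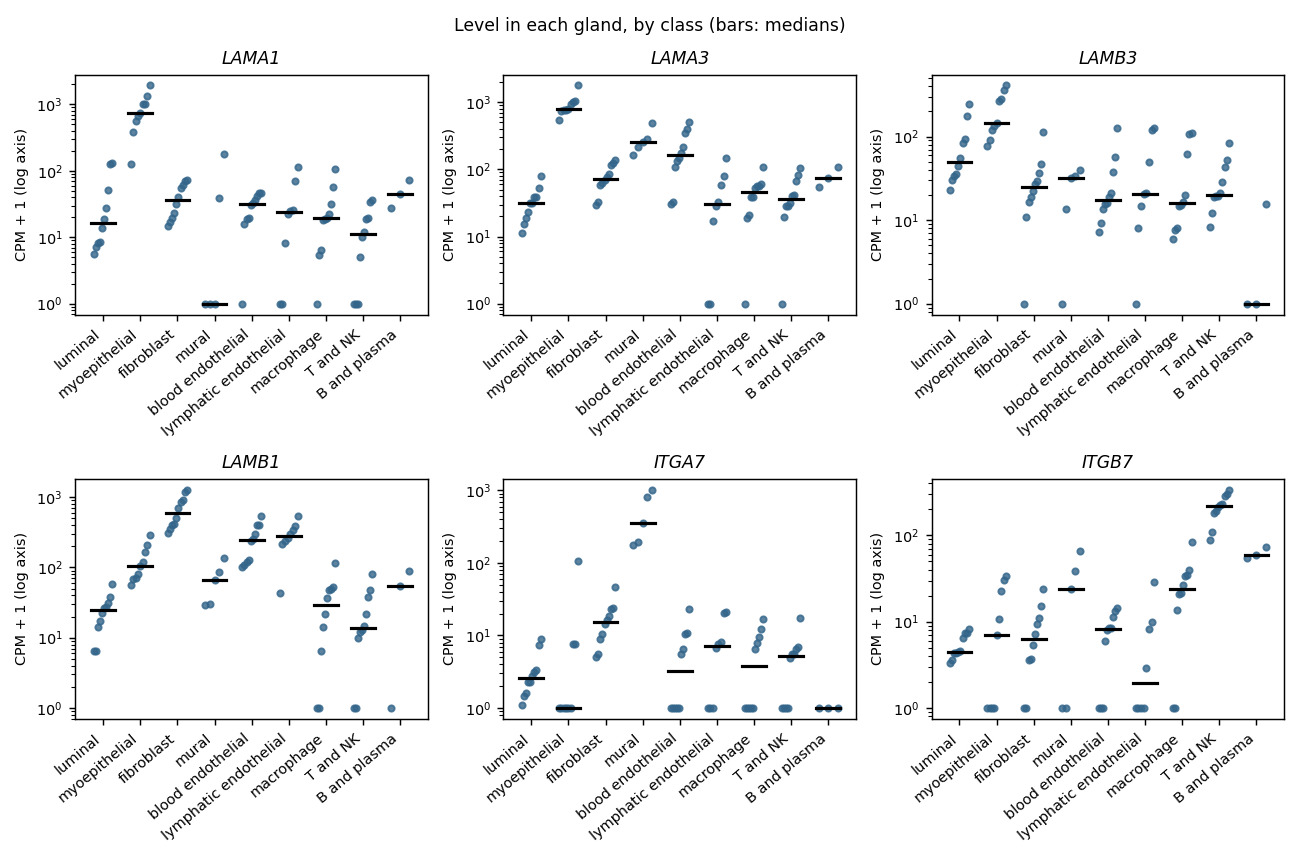
Level in every gland with at least 20 nuclei of the class (points, CPM + 1 on a log axis) and median (bars) for 6 genes. Myoepithelial glands lie above all others for LAMA3. They overlap the highest luminal and mural glands for LAMA1 and glands of several classes for LAMB3. Mural glands lie above all others for ITGA7 and T and NK glands for ITGB7, and fibroblast and endothelial glands overlap for LAMB1.

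Adipocyte nuclei, which passed 20 in 2 glands, were not tested. LAMC1 was at 917 CPM (848 to 989) in the 247 adipocyte nuclei of L20 replicate 2 and 744 CPM (494 to 1076) in the 24 of PI7 replicate 1, with exact 95% Poisson intervals that cover counting error. LAMB1 was at 249 CPM (214 to 288) and 611 CPM (387 to 917), and LAMA4 at 133 CPM (108 to 162) and 558 CPM (345 to 853). All the chains of laminin 411 were thus detected in both glands. ITGA7, otherwise a mural gene here, was at 91.7 CPM (71.0 to 116) and 266 CPM (127 to 489), and ITGAV at 404 CPM (359 to 452) and 239 CPM (109 to 454).

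Genes around the laminins and integrins were counted in 3 lists, with differences given as log2 fold changes against the other classes. Of the basement membrane partners (type IV collagens, nidogens, perlecan and others, 15 of 19 tested), 8 were higher and 1 lower in blood endothelial, 7 and 2 in myoepithelial, 7 and 1 in mural, 6 and 0 in fibroblast, 5 and 0 in lymphatic endothelial, 2 and 10 in luminal, 0 and 8 in macrophage, 0 and 7 in T and NK and 0 and 0 in B and plasma nuclei. Over all genes tested the higher share ran from 1.55% (B and plasma) to 13.7% (luminal) and the lower from 1.01% to 13.1% in the same classes, as given with each class above. COL17A1, the hemidesmosomal collagen, was higher in myoepithelial nuclei by 3.74, NID1 in fibroblast nuclei by 3.42, COL4A4 in myoepithelial nuclei by 3.29 and HSPG2 (perlecan) in blood endothelial nuclei by 3.19. Of the other integrin ligands (12 of 14 tested), 5 were higher and 0 lower in fibroblast and 5 and 2 in myoepithelial nuclei, with 3 and 3 in luminal, 5 and 3 in mural, 1 and 1 in blood endothelial, 0 and 2 in lymphatic endothelial, 3 and 3 in macrophage, 0 and 5 in T and NK and 1 and 0 in B and plasma nuclei. They include POSTN (periostin), by 4.73 in fibroblast and 3.83 in myoepithelial nuclei, FN1 (fibronectin), by 3.42 in fibroblast nuclei, and NPNT (nephronectin), by 3.13 in mural nuclei. SPP1 (osteopontin) was the single gene of the 3 lists that edgeR called in a stage test under the main settings, in myoepithelial nuclei. It was chosen for naming after its values were seen. For the alternatives, DESeq2 among them, calls of list genes are not given here. In myoepithelial nuclei no gene at all was called by stage with the stricter filter on nuclei, with at least 50 nuclei per gland, or without either L0 gland. Of the adhesion complex inside the cell (21 of 23 tested), 6 were higher and 1 lower in myoepithelial and 3 and 9 in T and NK nuclei, with 4 and 6 in luminal, 3 and 1 in fibroblast, 5 and 1 in mural, 4 and 0 in blood endothelial, 4 and 1 in lymphatic endothelial, 2 and 6 in macrophage and 1 and 1 in B and plasma nuclei. FERMT3, the kindlin of blood cells, was higher in macrophage nuclei by 2.90 and in T and NK nuclei by 2.44. BCAR1, an adaptor of focal adhesions, was higher in lymphatic endothelial nuclei by 2.59, and LIMS2, a partner of integrin-linked kinase, in blood endothelial nuclei by 2.57.

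Between adjacent stages no member was called in whole glands or in luminal nuclei by edgeR, where 0% of all genes were called in each whole-gland comparison and 0.00513% in luminal nuclei at L0 against G90 (0% in the other 3). At an unadjusted p under 0.05, 4, 10, 3 and 3 of 32 members passed in whole glands (L0 against G90, L20 against L0, PI2 against L20, PI7 against PI2) and 5, 10, 3 and 2 in luminal nuclei, beside 7.28%, 12.8%, 3.6% and 2.04% of all genes in whole glands and 10.9%, 11.9%, 2.96% and 2.67% in luminal nuclei. DESeq2 called LAMA1 at L0 against G90 and ITGA5, ITGAM, ITGB2, ITGB3, ITGB8 and LAMB1 at L20 against L0 in whole glands, where it called 1.73% and 5.1% of all genes. In luminal nuclei it called ITGB8, LAMA1 and LAMB1 at L0 against G90 and ITGA2, ITGA5, ITGAM, ITGB2, ITGB8 and LAMB1 at L20 against L0 (3.89% and 3.75% of all genes), and no member in the later comparisons. With 2 sows a stage, p-values rest on the spread between these few glands, and in whole glands fewer cells of a type cannot be told apart from less RNA per cell.

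LAMA1 had the largest absolute log2 fold change of the 32 members between G90 and L0, in whole glands and in luminal nuclei. In luminal nuclei it was at 125 and 129 CPM in the G90 sows, 7.15 and 7.55 in those of L0, 6.12 and 12.9 in L20 sows, then 26.4 and 4.60 (PI2) and 49.5 and 18 (PI7). Both G90 glands lay above all other glands, but the difference from L0 was not called (log2 fold change -3.88, SE 0.73, adjusted p = 0.11 by edgeR). In whole glands the values were 147 and 134 CPM at G90 and 15.5 and 21.1 at L0 (log2 fold change -2.56, SE 0.67, adjusted p = 0.34 by edgeR). LAMA1 passed the threshold in luminal nuclei under DESeq2, with no filter on low counts, with the 2 stages alone and without either PI2 gland. Over all its alternatives the adjusted p ran from 3.15e-05 to 0.805. The 7 myoepithelial markers, all detected, summed to 165 and 69.3 CPM in luminal nuclei at G90 and 85.7 and 112 at L0, and these overlapped. In myoepithelial nuclei LAMA1 was at 1026 CPM in the G90 gland with enough of them and at 1343 and 1922 CPM at L0.

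ITGB8 went the other way. In luminal nuclei it was at 464 and 503 CPM in the G90 sows, 1136 and 1079.7 in those of L0, 378 and 745 in L20 sows, then 585 and 509 (PI2) and 611 and 538 (PI7). Both L0 glands lay above all others (log2 fold change 1.42, SE 0.40, adjusted p = 0.21 by edgeR for L0 against G90). For L20 against L0 the log2 fold change was -1.39 and the adjusted p by edgeR 0.22. Over the alternatives the adjusted p of ITGB8 ran from 0.014 to 0.867 for L0 against G90 and from 0.025 to 0.891 for L20 against L0. LAMB1 was lowest at L0 in luminal nuclei, at 5.39 and 5.50 CPM against 36.5 and 13.4 at G90 and 25.8 and 57.8 at L20, without overlap (log2 fold change 2.51, SE 0.54, adjusted p = 0.15 by edgeR for L20 against L0, and 0.0019 to 0.863 over the alternatives). In the same nuclei the 10 fibroblast markers, all detected, summed to 149 and 49.0 CPM at G90, 48.5 and 22.3 at L0 and 149.7 and 236 at L20. The L0 glands lay below those of G90 and L20, though 48.5 and 49.0 CPM nearly met. At PI2 these markers summed to 172 and 32.3 CPM, with LAMB1 at 21.8 and 26.7 CPM. At PI7 they summed to 168 and 133 CPM, with LAMB1 at 30.2 and 16.4 CPM. The part of the fibroblast markers in the result was not tested.

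ITGB2 and ITGAM, the chains of a leukocyte receptor, were higher at L20 than at L0 also in the luminal class. ITGB2 was at 1.21 and 1.23 CPM at L0 and 30.3 and 11.7 at L20 in luminal nuclei (log2 fold change 3.92, SE 0.82, adjusted p = 0.15 by edgeR), and ITGAM at 4.09 and 4.56 and 27.8 and 32.4 CPM (log2 fold change 2.46, SE 0.55, adjusted p = 0.16 by edgeR). For neither gene did the stages overlap, and over the alternatives the adjusted p ran from 1.14e-04 to 0.854 for ITGB2 and from 0.0022 to 0.864 for ITGAM. In the same nuclei the 12 macrophage markers, all detected, summed to 39.0 and 23.5 CPM at L0 and 115 and 134 at L20. The 5 neutrophil markers summed to 2.09 and 1.93 and 44.6 and 18.1 CPM, with S100A8 at 0 in both L0 glands and in L20 replicate 2. The part of these leukocyte transcripts in the result was not tested. The L20 glands were unlike each other, with 50.2 and 5.21% of nuclei luminal and 4.81 and 21.8% fibroblast. Without L20 replicate 1 the log2 fold change of ITGB2 in luminal nuclei was 2.39, and without L20 replicate 2 it was 4.48.

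LAMB3 and ITGB6 differed widely between the sows of a stage. In luminal nuclei LAMB3 was at 176 and 28.9 CPM at L20 and 21.9 and 241 at PI2, and ITGB6 at 46.7 and 206 CPM at G90 and 34.5 and 403 at PI2. The 7 myoepithelial markers, all detected, summed in the same nuclei to 628 and 181 CPM at L20 and 224 and 243 at PI2. Their part in the LAMB3 values was not tested. In the other classes, tested for any difference between stages, no member was called by edgeR in myoepithelial (0.254% of all genes called), fibroblast (0.0168%), blood endothelial (0.0118%), lymphatic endothelial (0.0452%), macrophage (0.0256%) or T and NK nuclei (0.0268%). At an unadjusted p under 0.05, 1 of 21, 6 of 32, 4 of 25, 0 of 20, 4 of 23 and 0 of 25 members tested passed in these classes, in that order, beside 4.76%, 4.74%, 4%, 2.3%, 4.86% and 5.53% of all genes. DESeq2 was not run on these classes.

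Within myoepithelial nuclei, LAMA3 was at 992 CPM in G90 replicate 1, 1060.3 and 1778 in the L0 sows, 549 and 739.9 in L20 sows, 777 and 955 in those of PI2, and 778 and 803 in those of PI7. LAMB3 was at 75.7 CPM in G90 replicate 1, 283 and 89.8 in the L0 sows, 408 and 119.7 in L20 sows, 144 and 358 in those of PI2, and 134 and 266 in those of PI7. The highest gland of LAMA3 was an L0 gland and that of LAMB3 an L20 gland, and no member was called by stage in this class, which held 792 nuclei in all.

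From L0 to L20 the median log2 fold change of the 32 members in whole glands was 0.93, beside 0.24 for all genes, and from G90 to L0 -0.50 beside -0.17. The 10 fibroblast markers, all detected, summed to 298 and 83.7 CPM at L0 and 926 and 5818 at L20 in these glands, and the 12 macrophage markers, all detected, to 80.9 and 48.5 and 334 and 1693 CPM. Their part in the members' values was not tested. ITGB3, which pairs with ITGAV, was at 18.6 and 6.47 CPM at G90, 9.27 and 6.4 at L0 and 50.5 and 59.7 at L20, and ITGA5 at 31.6 and 6.53 CPM at G90, 11.9 and 4.33 at L0 and 52.1 and 66.7 at L20. The L20 glands lay above the others of these stages for both. LAMB1 was at 125 and 32.1 CPM at G90, 22.6 and 14 at L0 and 54.0 and 224 at L20, where L20 overlapped G90 but not L0. Without L20 replicate 1 its log2 fold change from L0 to L20 was 2.89, and without L20 replicate 2 it was 1.35. ITGA6 was at 772 and 534 CPM at G90, 268 and 443 at L0 and 308 and 108 at L20. Its highest values were those of both G90 glands, which did not overlap L0 or L20. In luminal nuclei ITGA6 was at 1015 and 555 CPM at G90, 273 and 455 at L0 and 332 and 287 at L20. The 11 luminal markers, all detected, summed in whole glands to 5284 and 5257 CPM at G90, 4067 and 4471 at L0 and 2486 and 981 at L20. Their part in the ITGA6 values was not tested.

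**Figure D3:**
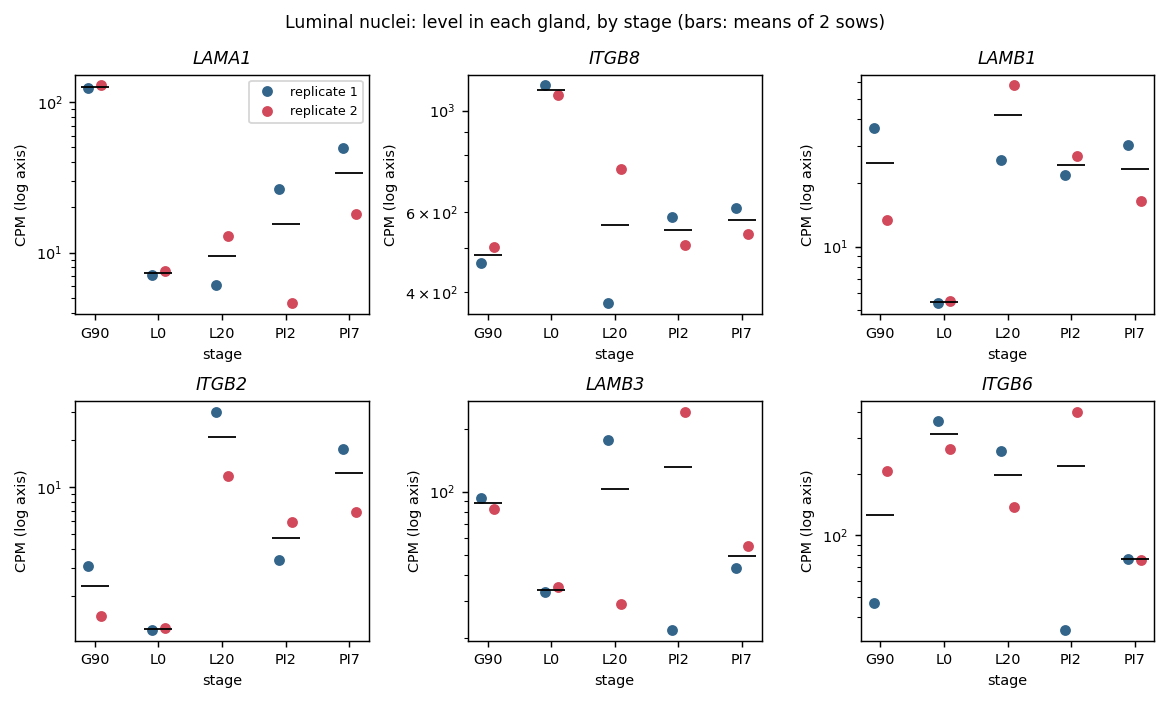
Level of 6 genes in luminal nuclei (CPM on a log axis) by stage, with a point for each sow and a bar at the mean of the 2. Both G90 points of LAMA1 and both L0 points of ITGB8 lie above all others, and the 2 sows differ widely for LAMB3 and ITGB6 at PI2.

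In milk, ITGB6, LAMB3 and ITGA6 were among the members lower and ITGA4, ITGA5, ITGB2, ITGB3 and ITGB8 among those higher at L20 than at L0. With 1 library a stage there was no test. The stage of each library is that of its source label, and the title letter of the library labelled L0 is that of the G90 glands. Of 32 members, 5 were over 2-fold higher and 12 over 2-fold lower at L20, where 13.9% and 26.9% of all genes with at least 10 UMIs were (40.8% in either direction). The median log2 ratio of L20 to L0 was -0.49 for members and -0.15 for all genes. ITGB6 was at 74.8 CPM (73.0 to 76.7) at L0 and 11.8 CPM (10.8 to 12.9) at L20 (exact 95% Poisson intervals, counting error only). LAMB3 was at 50.8 CPM (49.3 to 52.4) at L0 and 9.94 CPM (9.02 to 10.9) at L20, and ITGA6 at 70.3 CPM (68.5 to 72.1) at L0 and 14.9 CPM (13.8 to 16.1) at L20. These 3 genes were 6.33, 5.11 and 4.72-fold lower at L20. ITGA5 was at 8.35 CPM (7.73 to 9.0) at L0 and 29.6 CPM (28.0 to 31.3) at L20, ITGA4 at 18.5 CPM (17.6 to 19.4) at L0 and 59.1 CPM (56.8 to 61.5) at L20, and ITGB8 at 28.3 CPM (27.2 to 29.5) at L0 and 63.0 CPM (60.7 to 65.4) at L20. ITGB2 and ITGB3 were 2.08 and 2.04-fold higher.

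Milk levels were ranked among luminal, macrophage, T and NK and neutrophil cells, with unassigned cells left out. Of these classes, ITGB6 was highest in luminal cells in both libraries. It was at 105 CPM (98.0 to 113) in the 947 luminal cells of L0 and 48.6 CPM (41.5 to 56.6) in the 1004 of L20. ITGA6 was at 105 CPM (97.3 to 113) and 41.3 CPM (34.7 to 48.7) and LAMB3 at 63.2 CPM (57.4 to 69.3) and 19.9 CPM (15.5 to 25.2). Within luminal cells ITGB6, ITGA6 and LAMB3 were thus 2.17, 2.54 and 3.17-fold lower at L20, smaller ratios than in the whole libraries. The luminal class held only a part of these UMIs. For ITGB6 it held 743 of 6061 at L0 and 166 of 508 at L20. For ITGA6 it held 738 of 5692 and 141 of 640, and for LAMB3 445 of 4114 and 68 of 427. How far the classes account for the whole-library change was not tested. ITGB8 was highest in milk macrophages, at 253 CPM (220.1 to 289) and 205 CPM (185 to 227), against 29.2 and 31.0 CPM in luminal cells. ITGA2 was highest in neutrophils, at 107 CPM (101 to 113) and 101 CPM (92.9 to 109), as was ITGAM, at 529 CPM (516 to 542) and 495 CPM (478 to 513). ITGB1 and ITGA4 were highest in T and NK cells, at 752 and 841 CPM and 258 and 259.6 CPM. ITGB2 was highest in neutrophils at L0 (329 CPM, against 143 in macrophages), while at L20 neutrophils were at 192 and macrophages at 199 CPM. Neutrophils made up 51.5% of cells kept at L0 and 36.1% at L20, and the unassigned 39.3% and 44.9%.

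**Figure D4:**
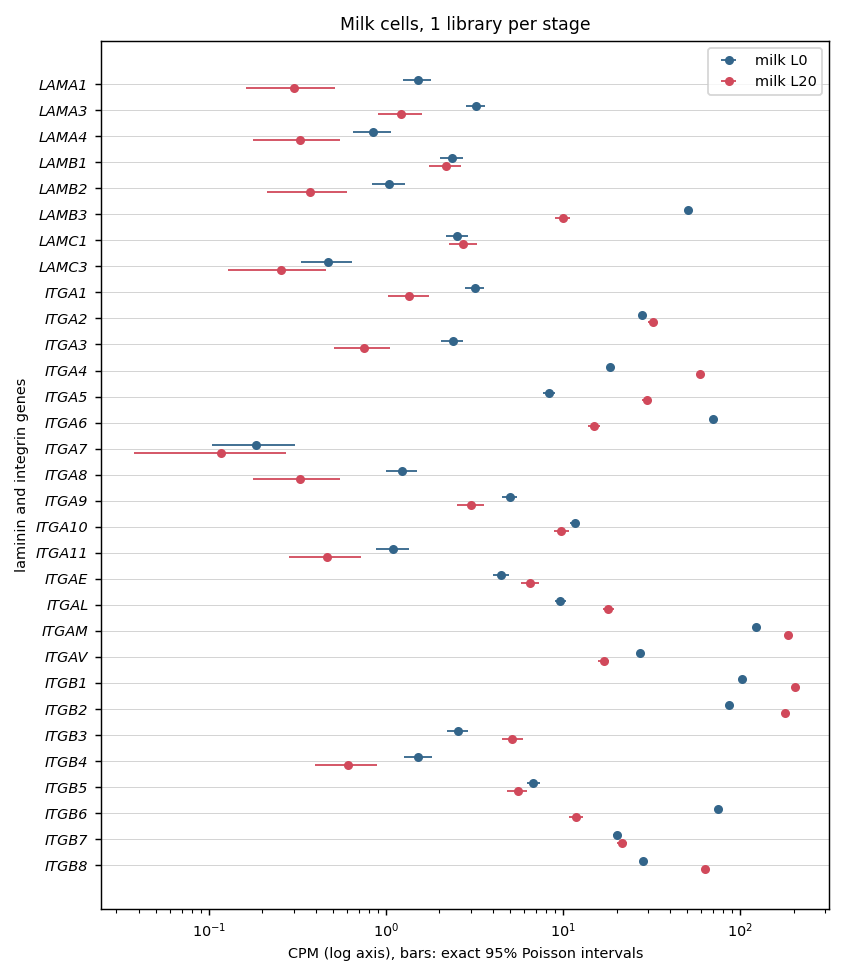
Level of 31 members in the milk library of L0 and of L20 (CPM on a log axis), with exact 95% Poisson intervals that cover counting error. LAMB3, ITGA6 and ITGB6 lie lower and ITGA4, ITGA5, ITGB2 and ITGB8 higher at L20.

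In the tissue sections, 9 of 30 members were over 2-fold higher and 4 over 2-fold lower at PI2 than at G90, where 14.5% and 17.4% of all genes with at least 10 UMIs were (32% in either direction), again with 1 section a stage and no test. The median log2 ratio of PI2 to G90 was 0.18 for members and -0.11 for all genes. ITGB2 was at 12.4 CPM (11.3 to 13.5) at G90 and 70.8 CPM (67.0 to 74.8) at PI2, and ITGAL at 7.4 CPM (6.61 to 8.27) at G90 and 26.4 CPM (24.1 to 28.9) at PI2. ITGA8, ITGB7, ITGA11, ITGB5, ITGA2, ITGB4 and LAMB2 were 3.07, 2.65, 2.63, 2.60, 2.39, 2.18 and 2.11-fold higher. LAMB1 was at 114 CPM (111 to 117) at G90 and 40.2 CPM (37.3 to 43.2) at PI2, and ITGAV at 72.5 CPM (69.9 to 75.0) at G90 and 33.8 CPM (31.2 to 36.6) at PI2. ITGB6 and ITGA1 were also over 2-fold lower. LAMA3 and LAMC1 were at 1.0 and 0.974 times their G90 level.

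Within sections, the tenth of spots with the largest share of UMIs from a class's markers was set beside the rest. Values are given for LAMA4, LAMC1, ITGB4 and LAMA1, and those of the other members and marker lists are not given here. In the spots richest in fibroblast markers LAMA4 was at 103 CPM (87.2 to 121) against 52.4 CPM (50.3 to 54.7) in the rest at G90 and 141 CPM (111 to 177) against 34.0 CPM (31.3 to 36.9) at PI2, and LAMC1 at 139 CPM (119.9 to 159.5) against 72.1 CPM (69.6 to 74.8) and 169 CPM (136 to 208) against 69.4 CPM (65.6 to 73.5). In the spots richest in myoepithelial markers ITGB4 was at 86.5 CPM (77.2 to 96.7) against 57.5 CPM (55.2 to 60.0) at G90 and 224 CPM (203 to 247) against 120.4 CPM (115 to 126) at PI2. LAMA1 was lower in those spots than in the rest, at 44.0 CPM (37.4 to 51.4) against 60.1 CPM (57.7 to 62.6) and 17.5 CPM (12 to 24.7) against 35.3 CPM (32.5 to 38.4). LAMC3 was at 90.0 and 69.5 CPM in the sections of G90 and PI2, and at 14.8 and 3.46 CPM and 2.66 and 4.71 CPM in the nuclei of these stages. LAMB2 was at 26.4 and 55.6 CPM in sections, and at 5.92 and 3.89 CPM and 8.80 and 3.37 CPM in nuclei. Sections and nuclei were made with different kits, and their levels were not compared by a test.

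**Figure D5:**
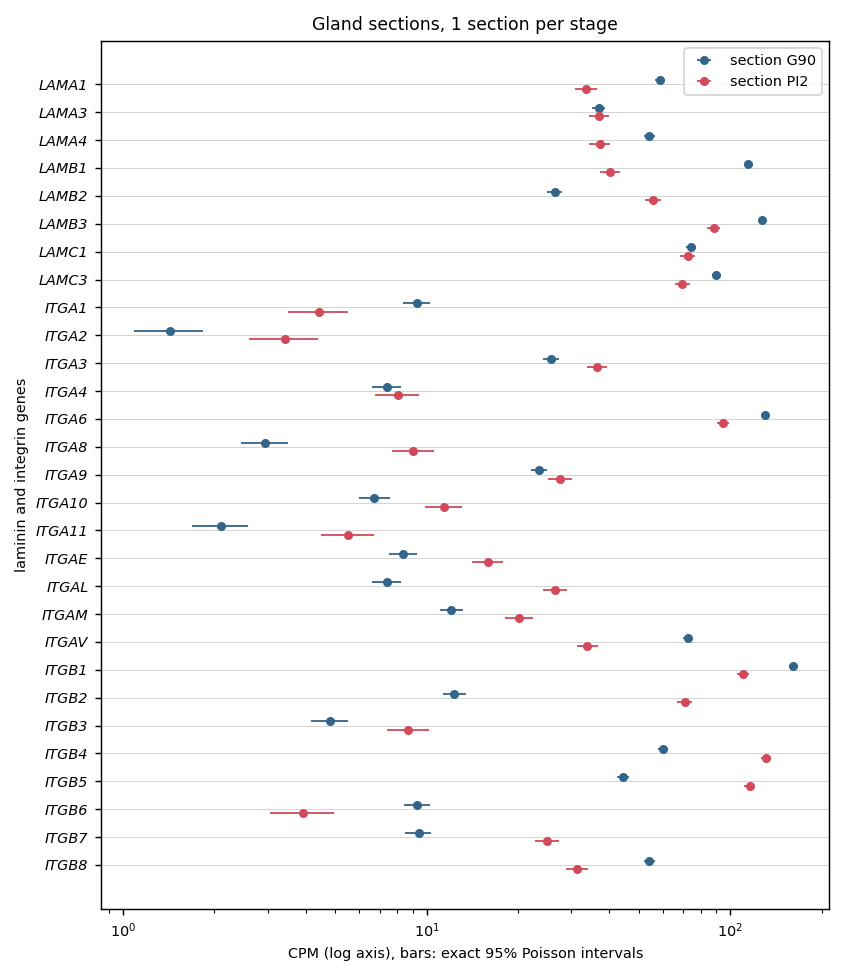
Level of 29 of the 30 members listed for the sections in the G90 and the PI2 section (CPM on a log axis), with exact 95% Poisson intervals that cover counting error. ITGB2, ITGAL, ITGB7 and ITGA8 lie higher and LAMB1, ITGAV, ITGA1 and ITGB6 lower at PI2.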

How the data were processed

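The authors deposited UMI counts per gene and barcode, not normalized. Nuclei and milk cells were prepared with GEXSCOPE kits and counted with CeleScope v1.1.7, and spots with Space Ranger (1.2.0 in the submitters' processing notes, 1.3.1 in the count header), all on Sscrofa11.1; for the annotation release, nothing is given in the sources used here. Barcode lists and gene names came with them. Milk groups follow the source labels, although the title of the milk library labelled L0 carries the letter that marks G90 in the gland titles. That of the L20 milk library carries the letter of L20.

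Barcodes under 300 genes or over 25% mitochondrial UMIs were dropped, which left 126833 of 128233 nuclei. A nucleus took a class with at least 2 of its markers detected, more than of any other class, and at most 1 of each other class. No doublet caller and no ambient RNA correction was run. Any 2 gland or milk libraries shared at most 284 barcodes. UMIs were summed per gland or per class and gland and tested in edgeR 4.0.16 (TMM, filterByExpr) with Benjamini-Hochberg adjustment, in 1 fit over the 5 stages without a replicate block. Scripts were tested on simulated data. DESeq2 1.42.0, other filters, gates and scalings, and each gland left out were alternatives. Every member was named except 1, which is counted but not reported here, the called ones with the largest changes in full, and of each pathway list the largest called changes. The members, markers and lists were chosen with earlier results of these data known. P-values of the stage tests measure the spread between the sows sampled. Those of the class tests, with the gland as a block, measure the spread of class differences over glands with at least 20 nuclei of a class. These were from 3 (B and plasma) to all 10 of the same glands.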

Additional observations from a re-analysis of the deposited data

How the results depend on the processing

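The count of 117 member calls over classes stayed between 110 and 119 under the alternatives other than leaving out a gland, and between 109 and 120 with each gland left out. Of these calls 33 were lost under at least 1 alternative, and 1 changed direction: ITGB7 in fibroblast nuclei was at a log2 fold change of 0.19 with a gate of at least 3 markers, against -1.20. Between stages, where edgeR called 0 members, the calls of members over the 4 comparisons rose in whole glands to 3 with no filter on low counts, 7 with DESeq2 and 1 with only the glands of the 2 stages, and in luminal nuclei to 5, 9 (7 different members) and 3. The share of all genes called rose as well in the comparisons concerned, to 0.937%, 1.73% and 5.1%, and 2.01% in whole glands, and to 1.88% and 2.17%, 3.89% and 3.75%, and 6.51% in luminal nuclei. With each gland left out the member calls numbered 0 in whole glands and 0 to 1 in luminal nuclei, where LAMA1 was called at L0 against G90 without PI2 replicate 1 or replicate 2 (0.276% and 0.327% of all genes). In the other classes they rose to 5 with no filter on low counts (1 in fibroblast, 1 in blood endothelial and 3 in macrophage nuclei, where 1.25%, 0.668% and 0.723% of all genes were called), and numbered 0 with each gland left out. The causes were not tested. With the replicate number as a block they numbered 0 in all 3 sets. Between pairs of stages, the deviations of same-numbered glands had correlations of -0.52 to 0.39. Glands also differ in their mix of cells, so these values cannot show whether the numbers pair the sows. Members past 2-fold numbered 17 to 20 in milk and 13 in sections under every alternative. Mural and B and plasma nuclei passed the minimum number in 5 and 3 glands, the fewest of the classes tested.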
